A study of Rattus norvegicus with 20 samples.

Results

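The genes described here encode 7 subunits of the receptors for GABA, the main inhibitory transmitter of the brain: Gabra2, Gabra4, Gabra5, Gabrb2 and Gabrd of the GABA-A receptor, and Gabbr1 and Gabbr2 of the GABA-B receptor. They were taken by symbol from a deposited table of read counts that holds 17296 symbols, of which 12846 had enough counts to be tested; all 7 subunits were among these. RNA was measured in the nucleus accumbens, the ventral part of the striatum, of 20 male wild-type Sprague-Dawley rats, 7 to 9 weeks old per the labels. The 4 groups differed in what the rats drank: antibiotics together with short-chain fatty acids (Abx_SCFA, n = 5), short-chain fatty acids alone (SCFA, n = 6), antibiotics alone (Abx, n = 4) or plain water (H2O, n = 5). Antibiotics served to deplete the gut microbiome, and short-chain fatty acids are products of bacterial fermentation in the gut. All 4 groups self-administered cocaine.

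GABA-A receptors are pentameric chloride channels in which alpha and beta subunits assemble with a gamma or delta subunit, and the alpha subunit sets much of the receptor's location and drug response. GABA-B receptors are obligate heterodimers: the Gabbr1 subunit binds GABA, and the Gabbr2 subunit couples to G proteins that open GIRK potassium channels and close calcium channels. Medium spiny neurons make up most of the accumbens' neurons; they release GABA themselves and receive it from each other and from local interneurons. From their known distribution in rodent brain, Gabra2, Gabra4 and Gabrd were grouped as the striatal subunits, Gabra5, Gabrb2 and Gabbr2 as the more cortical ones, and Gabbr1 as broadly expressed. This grouping was made with earlier results of these data known, so the relations to cell type markers below are no independent support for it.

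Library totals ran from 17525358 to 25731636 counts, and the subunit with the fewest counts, Gabrb2, had 320 to 1020 counts per library. Levels are in CPM, counts relative to a fixed number of reads, scaled to the effective library size; because they are not divided by gene length, levels are compared between libraries and never between genes. Medium spiny neuron markers were abundant in every library, with a summed level over 14 genes of 6687 to 8249 CPM in Abx_SCFA, 3797 to 8002 in SCFA, 6184 to 8856 in Abx and 6359 to 8880 in H2O. Replicates 2 and 5 of SCFA stood apart on these markers, at 3980 and 3797 CPM. Excitatory neurons of the cortex are not part of the accumbens, yet their markers were also present: the summed level of 11 genes ran from 397 to 840 CPM in Abx_SCFA, 307 to 2165 in SCFA, 297 to 1040 in Abx and 197 to 585 in H2O. Slc17a7, which fills vesicles with glutamate in such neurons, had medians of 194 CPM in Abx_SCFA, 268 in SCFA, 320 in Abx and 14.6 in H2O, and Neurod1 was at 0 counts in H2O replicates 1 and 3. Drd1, the dopamine D1 receptor of a class of spiny neurons, averaged 379 ± 35.8 CPM in Abx_SCFA, 288 ± 86.7 in SCFA, 374 ± 60.3 in Abx and 406.8 ± 69 in H2O (SD). In tissue pieces such as these, fewer cells of a type and less RNA per cell cannot be told apart. The rat numbers in the library titles form series: all SCFA and Abx_SCFA rats belong to series 4 and all Abx and H2O rats to series 2 and 3, so number series and fatty acids cannot be told apart in SCFA or Abx_SCFA against H2O and in Abx_SCFA against Abx. The interaction, which sets an antibiotic difference within series 4 against one within series 2 and 3, has the same limit.

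Of the striatal subunits, Gabra4 encodes the alpha4 subunit, which joins the delta subunit in receptors outside the synapse that carry tonic inhibition. It had 117, 114, 124, 139.8 and 112 CPM in the Abx_SCFA libraries. In SCFA the lowest library had 81.1 CPM, the median was 97.9 and the highest had 129.8. Abx libraries had 102, 128, 148 and 119 CPM, against 133, 145, 128, 121 and 107 CPM in H2O. Among the SCFA libraries 4 of 6 lay below the lowest library of any other group, while replicate 4 lay among the H2O libraries, so the groups overlapped.

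Gabrd, the delta subunit itself, had 53.3, 48.6, 61.9, 63.8 and 56.7 CPM in Abx_SCFA. SCFA libraries spanned 39.5 to 60.03 CPM with a median of 48.5. Abx libraries had 42.6, 54.9, 61.5 and 53.4 CPM, against 65.1, 69.03, 60.6, 49.8 and 45.5 CPM in H2O. The H2O group was itself wide, and its lowest library lay below the SCFA median.

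Gabra2, the alpha2 subunit of synaptic receptors, which is known for its part in the calming action of benzodiazepines, varied less. Abx_SCFA libraries had 178, 194, 187, 193 and 177 CPM, and SCFA libraries spanned 141 to 205 CPM with a median of 170. Abx libraries had 164, 207.4, 212 and 183 CPM, against 202.4, 208.6, 187, 206 and 171 CPM in H2O. All 3 striatal subunits were lowest in the same library, SCFA replicate 2. Across the 20 libraries the log2 CPM of Gabra4 correlated with that of Gabra2 (r = 0.89) and of Gabrd (r = 0.862), values given as a description because the subunits share their libraries.

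Promoter sequences of 2 striatal and 2 more cortical subunits are shown because these pairs differ in how they followed the cell type markers, as given further on. Each runs from 250 bases before to 50 bases after the start of the gene in RefSeq, assembly GRCr8, which differs from the build the counts were made with. A promoter was listed for 6 of the 7 subunits. Capitals mark matches, on either strand, to the letters of the Egr site (GCGNGGGCG), of the GC box (GGGCGG) and of the half-site of the cAMP response element (TGACG). Gabra4 lies at chr14:36944497-36944796, plus strand; Gabrd at chr5:171252660-171252959, minus strand; Gabra5 at chr1:117516557-117516856, minus strand; and Gabbr2 at chr5:66083646-66083945, minus strand.
Gabra4: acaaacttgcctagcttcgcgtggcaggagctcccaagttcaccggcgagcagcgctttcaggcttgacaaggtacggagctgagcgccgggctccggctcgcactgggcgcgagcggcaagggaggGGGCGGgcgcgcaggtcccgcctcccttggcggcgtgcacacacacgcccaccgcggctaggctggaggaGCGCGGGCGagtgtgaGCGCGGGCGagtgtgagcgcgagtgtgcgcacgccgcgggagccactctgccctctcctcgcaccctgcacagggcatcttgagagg
Gabrd: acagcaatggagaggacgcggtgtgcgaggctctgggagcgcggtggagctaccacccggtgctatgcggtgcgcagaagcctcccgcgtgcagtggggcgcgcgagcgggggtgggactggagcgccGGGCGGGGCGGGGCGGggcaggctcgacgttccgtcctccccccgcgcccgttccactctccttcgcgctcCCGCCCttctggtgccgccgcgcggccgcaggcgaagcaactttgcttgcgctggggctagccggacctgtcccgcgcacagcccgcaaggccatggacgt
Gabra5: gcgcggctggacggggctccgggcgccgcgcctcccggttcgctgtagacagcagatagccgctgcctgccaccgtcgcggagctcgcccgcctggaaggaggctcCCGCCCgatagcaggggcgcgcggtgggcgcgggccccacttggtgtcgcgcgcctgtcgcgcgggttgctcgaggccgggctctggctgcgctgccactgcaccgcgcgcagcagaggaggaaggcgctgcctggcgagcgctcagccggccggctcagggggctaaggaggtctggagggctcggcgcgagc
Gabbr2: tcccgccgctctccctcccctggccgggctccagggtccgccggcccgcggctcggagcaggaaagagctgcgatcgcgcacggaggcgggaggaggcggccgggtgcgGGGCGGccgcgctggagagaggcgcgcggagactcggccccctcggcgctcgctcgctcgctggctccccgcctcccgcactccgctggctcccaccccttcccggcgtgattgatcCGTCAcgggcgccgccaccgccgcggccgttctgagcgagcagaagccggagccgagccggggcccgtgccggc

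Gabra4 held 2 Egr matches, which start 53 and 37 bases before the gene's start, and 4.98% of the 33469 promoters in the table hold at least 1. Gabrd held 4 GC boxes, of which 3 run into each other, while Gabra4, Gabra5 and Gabbr2 held 1 each; 33.1% of all promoters hold 1 or more. Gabbr2 also held 1 cAMP half-site 24 bases before its start, a motif found in 21.2% of promoters. The full cAMP response element (TGACGTCA), the NeuroD E-box (CAGATG) and the TATA box (TATAAA) had no match in any of the 6 promoters. GC content was 70.7% for Gabra4, 73.7% for Gabrd, 76.3% for Gabra5, 78.7% for Gabbr2 and 75% for Gabbr1, against a median of 51.7% over all promoters. Gabrb2 stood apart with 44% and 9 CpG dinucleotides, where the other 5 had 32 to 47. These matches are letters in a window and were not tested as binding sites. Gabra2 and Gabra4 are neighbours on chromosome 14, with Cox7b2 between them.

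Gabbr2 varied most of all the subunits. Abx_SCFA libraries had 85.6, 105, 97.7, 134 and 112 CPM. In SCFA the lowest library had 77.7 CPM, the median was 117 and the highest had 358. Abx libraries had 173, 75.1, 108 and 166 CPM, against 61.6, 81.5, 70.2, 74.2 and 106 CPM in H2O. High values stood in SCFA replicates 2, 5 and 6 and Abx replicates 1 and 4, while the other 3 SCFA libraries and Abx replicate 2 lay within the H2O range. The highest library exceeded the lowest 5.81-fold, and the coefficient of variation over the 20 libraries was 56%, higher than that of 96.6% of the genes tested.

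Gabbr1, the partner of Gabbr2, was among the steadier genes, with a coefficient of variation of 6.96%, higher than that of 16.7% of the genes tested. Abx_SCFA libraries had 1559, 1646, 1545, 1588 and 1548 CPM, SCFA libraries spanned 1273 to 1696 with a median of 1468, and Abx libraries had 1627, 1572, 1582 and 1415 CPM, against 1480, 1542, 1654, 1560 and 1501 CPM in H2O. The 4 groups overlapped throughout, with SCFA holding both the lowest and the highest library. Its means were 1577 ± 42.1 CPM in Abx_SCFA, 1458 ± 154 in SCFA, 1549 ± 92.5 in Abx and 1547 ± 67.6 in H2O (SD). The count of Gabbr2 as a percentage of that of Gabbr1 averaged 6.77% ± 1.11 in Abx_SCFA, 10.7% ± 7.17 in SCFA, 8.49% ± 3.25 in Abx and 5.11% ± 1.2 in H2O (SD). This percentage depends on gene length and is read only between libraries, where it ran from 4.16% in H2O replicate 1 to 23.4% in SCFA replicate 5.

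Gabra5 encodes the alpha5 subunit, which is abundant in the hippocampus and deep cortex and sits largely outside synapses. Abx_SCFA libraries had 47.8, 60.9, 58.1, 72.8 and 63.3 CPM, and SCFA libraries spanned 40.7 to 96.5 CPM with a median of 62.8. Abx libraries had 79.6, 57.8, 54.3 and 50.6 CPM, against 46.9, 58.4, 52.6, 53.3 and 64.8 CPM in H2O. Both the lowest and the highest library belonged to SCFA, and the other groups lay between them. Gabrb2, the beta2 subunit of widespread synaptic receptors, had 19.2, 17.5, 21.3, 26.8 and 18.3 CPM in Abx_SCFA. SCFA libraries spanned 16.8 to 40.4 CPM with a median of 22.9, and Abx libraries had 19.9, 22.003, 29.6 and 29.04 CPM, against 21.2, 25.7, 26.5, 24.3 and 20.5 CPM in H2O. SCFA replicate 5 was the highest library for Gabra5, Gabrb2 and Gabbr2.

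**Figure D1:**
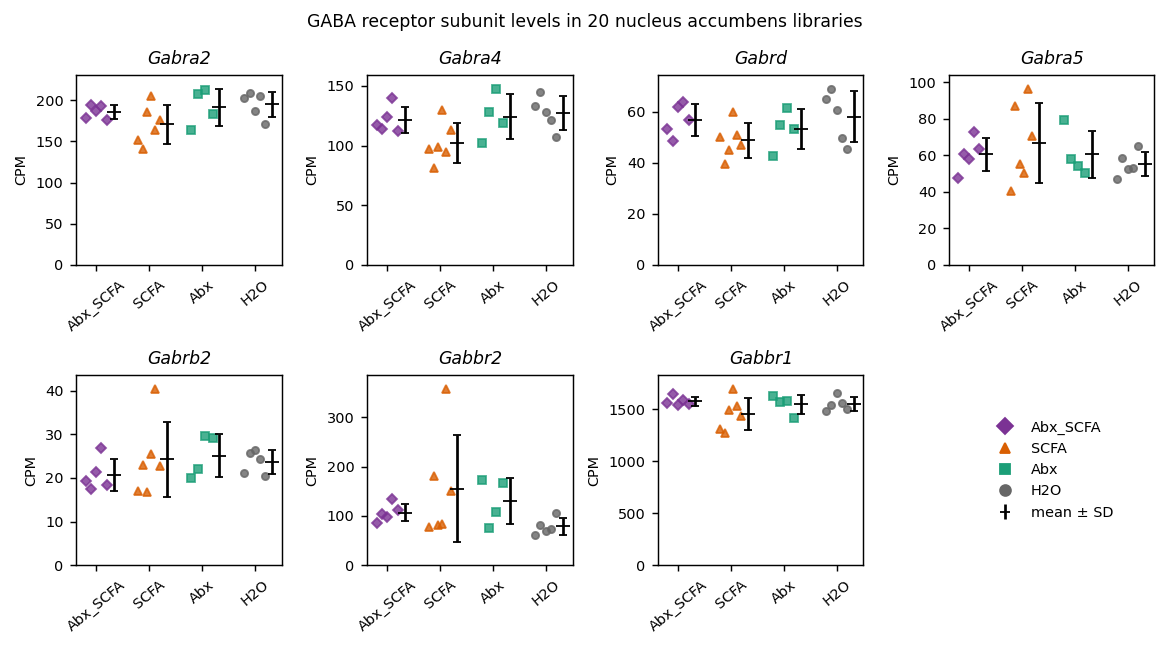
Level of each subunit in CPM (vertical axis, linear and from 0) in the libraries of Abx_SCFA, SCFA, Abx and H2O; each symbol is 1 library and the bars give the group mean ± SD. Gabbr2 spreads from 61.6 CPM in H2O to 358 CPM in SCFA, while Gabbr1 stays between 1273 and 1696 CPM.

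The levels of the subunits were then set against the cell type markers, each summarised per library as the mean log2 CPM of its list. None of the 7 subunits is in a list. The 2 scores gave 14 relations, with p-values from two-sided permutation tests of 100000 resamples and Benjamini-Hochberg adjustment over the 14. Gabbr2 followed the cortical score with r = 0.897 and rho = 0.979 over 20 libraries (permutation p = 1e-05, the smallest these resamples can give; adjusted p = 4.67e-05). Gabra5 followed it with r = 0.738 and rho = 0.749 (permutation p = 0.00015; adjusted p = 0.000525). The striatal subunits ran the other way, with r = -0.546 and rho = -0.614 for Gabra2, r = -0.55 and rho = -0.559 for Gabra4 and r = -0.533 and rho = -0.502 for Gabrd (permutation p = 0.0125, 0.0116 and 0.0153; adjusted p = 0.0249, 0.0249 and 0.0268). Gabrb2 (r = 0.205, rho = 0.113, permutation p = 0.384, adjusted p = 0.414) and Gabbr1 (r = -0.252, rho = -0.25, permutation p = 0.282, adjusted p = 0.352) did not pass.

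Such relations were common in these libraries, so each r is read against the other 12834 genes tested that are not in the cortical list. Of those genes, 0.849% had an r as far from 0 as that of Gabbr2 and 6.05% as that of Gabra5, while the share was 19.9% for Gabra2, 19.4% for Gabra4 and 21.1% for Gabrd. After removal of the group means Gabbr2 still had r = 0.897 (permutation within groups p = 1e-05, adjusted p = 0.00014) and Gabra5 r = 0.807 (adjusted p = 0.00049). The striatal subunits then had r of -0.465, -0.471 and -0.47 for Gabra2, Gabra4 and Gabrd, and none passed (adjusted p = 0.14, 0.134 and 0.134). Without the 2 libraries farthest from the median score, H2O replicates 1 and 3, r was 0.928 for Gabbr2, 0.77 for Gabra5, -0.591 for Gabra2 and -0.527 for Gabra4, and that of Gabrd, -0.422, no longer passed (adjusted p = 0.125). Leaving out SCFA replicate 2 alone ended the adjusted result of all 3 striatal subunits, at r of -0.474 for Gabra2, -0.48 for Gabra4 and -0.463 for Gabrd. That of Gabra4 was also lost without SCFA replicate 5 (r = -0.481), and that of Gabrd without H2O replicate 1 (r = -0.466) or 2 (r = -0.499).

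Within number series 4 alone, which holds the 11 SCFA and Abx_SCFA libraries, r with the cortical score was 0.967 for Gabbr2, 0.975 for Gabra5 and 0.707 for Gabrb2 (permutation p = 1e-05, 1e-05 and 0.016; adjusted p = 7e-05, 7e-05 and 0.0449); rho was 0.945, 0.973 and 0.527, the last not passing. Gabra2, Gabra4 and Gabrd had r of -0.382, -0.427 and -0.359 there and did not pass. Within series 2 and 3, the 9 Abx and H2O libraries, Gabbr2 had r = 0.93 (exact permutation p = 0.000292, adjusted p = 0.00303). Gabra5 had r = 0.612 in those 9 libraries and did not pass (exact permutation p = 0.0707, adjusted p = 0.179). The relation of Gabbr2 was therefore found in both sets of rats, and that of Gabra5 passed in series 4 alone; the difference between the sets was not tested.

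The medium spiny neuron score fell into separate clusters, since SCFA replicates 2 and 5 lay below a gap from 7.73 to 8.35 that makes up 50.2% of the whole range, and relations were computed over the other 18 libraries. Gabra4 followed this score with r = 0.873 and rho = 0.862, and Gabrd with r = 0.869 and rho = 0.876 (permutation p = 1e-05 for both, adjusted p = 4.67e-05 for both). Gabra2 followed it less closely, with r = 0.691 and rho = 0.765 (permutation p = 0.00142, adjusted p = 0.00398). Among 12831 other genes tested, 0.234% had an r as far from 0 as Gabra4, 0.265% as Gabrd and 3.8% as Gabra2. Gabrb2, grouped with the more cortical subunits, had r = 0.524 and rho = 0.486 with this score (permutation p = 0.0275, adjusted p = 0.0428), a call lost when any 1 of 10 libraries was left out, with r then between 0.409 and 0.524. Of the 12831 other genes, 16.1% had an r as far from 0 as that of Gabrb2. Gabbr2 had r = -0.257 and rho = -0.278 (permutation p = 0.302, adjusted p = 0.352), Gabra5 r = -0.056 and rho = -0.172 (p = 0.827, adjusted p = 0.827) and Gabbr1 r = 0.444 and rho = 0.455 (p = 0.0645, adjusted p = 0.0903). All these values leave out SCFA replicates 2 and 5. Over all 20 libraries r with the spiny neuron marker Drd1, given as a description, was 0.884 for Gabra4, 0.796 for Gabra2 and 0.671 for Gabrd. By this measure Gabrd ranked below Gabra2, unlike over the 18 libraries. SCFA replicate 5, which was left out, had 50.8 CPM of Gabrd, above the SCFA median of 48.5. For the others r with Drd1 was -0.705 for Gabbr2, -0.582 for Gabra5, -0.159 for Gabrb2 and 0.505 for Gabbr1.

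Without the 2 libraries farthest from the median of this score, H2O replicate 2 and Abx replicate 3, r over 16 libraries was 0.801 for Gabra4, 0.876 for Gabrd and 0.584 for Gabra2, while Gabrb2 had 0.331. Within number series 4, over 9 libraries, Gabra4 had r = 0.868 and Gabrd r = 0.904 (exact permutation p = 0.00257 and 0.00218; adjusted p = 0.00901 for both). Within series 2 and 3, also 9 libraries, Gabra4 had r = 0.927 and Gabrd r = 0.849 (exact permutation p = 0.000433 and 0.00418; adjusted p = 0.00303 and 0.0195). Gabra2 had r = 0.669 in series 4 and 0.726 in series 2 and 3, and passed in neither (adjusted p = 0.0723 and 0.11). Gabra4 and Gabrd thus passed with the spiny neuron score in each set of rats. Of the subunits grouped as more cortical, Gabbr2 and Gabra5 passed with the cortical score over all libraries and Gabrb2 did not.

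**Figure D2:**
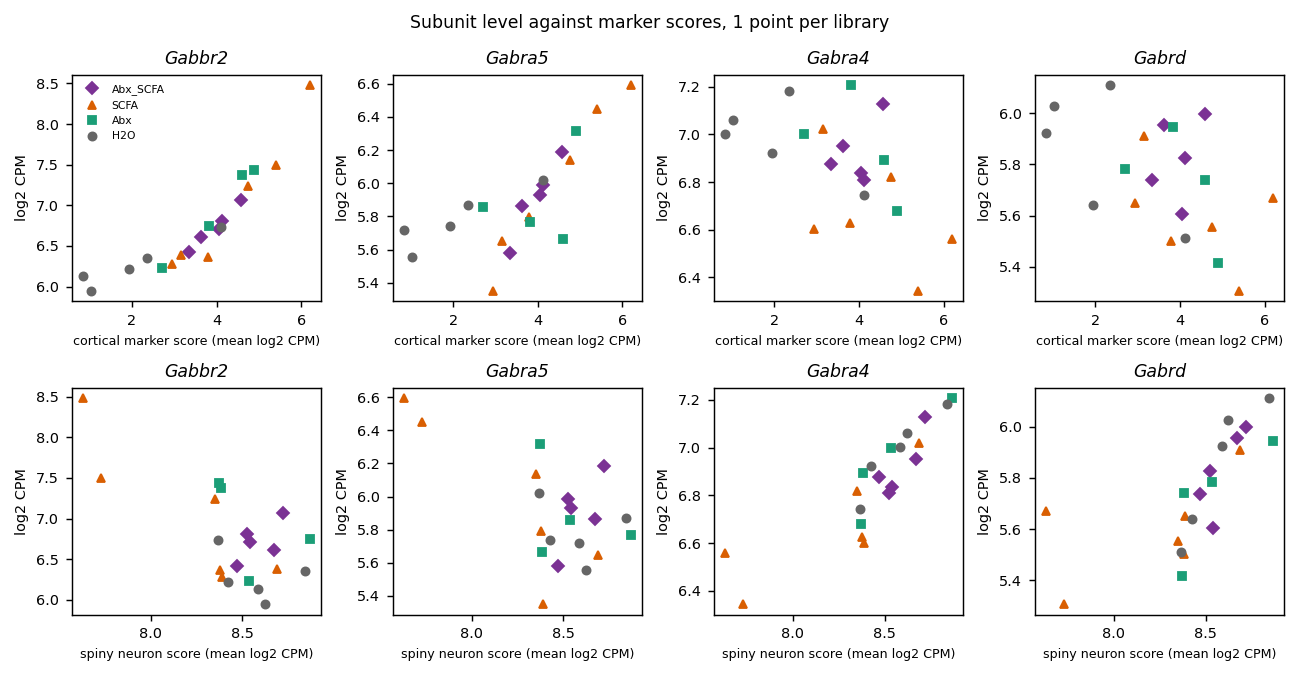
Log2 CPM of Gabbr2, Gabra5, Gabra4 and Gabrd (vertical axes) against the cortical marker score in the upper row and the medium spiny neuron score in the lower row (horizontal axes, mean log2 CPM), with 1 point per library coloured by group. Gabbr2 climbs with the cortical score (r = 0.897, 20 libraries), Gabra4 and Gabrd climb with the spiny neuron score (r = 0.873 and 0.869, 18 libraries), and the pair of points at the far left of the lower row is SCFA replicates 2 and 5.

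Treatment groups were compared in 1 edgeR quasi-likelihood model of all tested genes, and a call needed a p below 0.05 after Benjamini-Hochberg adjustment over all of them. No subunit was called in any of the 6 comparisons, and neither was any other gene, so the background was 0% in each; DESeq2 called 0 to 10 genes per comparison and no subunit, and 410 to 1770 genes had an unadjusted edgeR p below 0.05. The counts below therefore use the unadjusted p below 0.05 as a description, beside the percentage of all tested genes that reach it in the same direction. In none of the 5 pairs of groups did a subunit's libraries lie wholly apart, which held for 0.537% to 2.46% of the tested genes.

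The comparison of SCFA with H2O asks what fatty acids do in rats with an intact microbiome. The striatal subunits had lower means in SCFA and Gabbr2 had a higher one, but no subunit passed the adjusted test. Gabra4 averaged 102 ± 16.9 CPM in SCFA and 127 ± 14.1 in H2O (SD), a log2 fold change of -0.31 ± 0.108 (SE; adjusted p = 0.25). Gabra2 averaged 171 ± 23.5 CPM in SCFA and 195 ± 15.6 in H2O (log2 fold change -0.19, adjusted p = 0.329), and Gabrd 48.8 ± 6.86 CPM in SCFA and 58.02 ± 10 in H2O (log2 fold change -0.25, adjusted p = 0.357). Gabbr2 averaged 156 ± 108 CPM in SCFA and 78.8 ± 17.1 in H2O, a 1.98-fold difference (log2 fold change 0.98 ± 0.346, SE; adjusted p = 0.252). Gabra5 had 0.27 ± 0.186, Gabrb2 0.04 ± 0.187 and Gabbr1 -0.086 ± 0.0659 (log2 fold change, SE).

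At an unadjusted p below 0.05 there were 3 lower subunits of 7, Gabra2, Gabra4 and Gabrd, where 5.58% of all genes were lower, and 1 higher subunit, Gabbr2, where 8.2% were higher. No cell type marker was called either, but in the same comparison all 11 cortical markers had positive fold changes (median log2 2.61, 11 of 11 at an unadjusted p below 0.05), and all 14 spiny neuron markers had negative ones (median -0.33, 5 of 14). In a fit that carries the cortical score as a term, the log2 fold change of Gabbr2 became -0.37, that of Gabra5 -0.35 and those of Gabra2, Gabra4 and Gabrd -0.042, -0.12 and -0.042. Without SCFA replicates 2 and 5 no subunit reached an unadjusted p below 0.05, with log2 fold changes of 0.33 for Gabbr2, -0.21 for Gabra4, -0.11 for Gabra2 and -0.19 for Gabrd. SCFA replicate 5 alone took the value of Gabbr2 to 0.55 when left out, and without 1 of SCFA replicates 2 and 5 or H2O replicates 1 and 2 the number of subunits at an unadjusted p below 0.05 was 2, while that of all genes was 1182 to 1431, against 1770 with all libraries.

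The effect of depleting the microbiome alone is asked by Abx against H2O. Gabbr2 averaged 130.4 ± 47 CPM in Abx and 78.8 ± 17.1 in H2O, with a log2 fold change of 0.73 ± 0.375 (SE; adjusted p = 0.588). The other subunits differed less. Gabra5 averaged 60.6 ± 13 CPM in Abx and 55.2 ± 6.74 in H2O (SD; log2 fold change 0.13 ± 0.206, SE). Gabrb2 averaged 25.1 ± 4.92 CPM in Abx and 23.6 ± 2.67 in H2O (0.087 ± 0.206). Among the striatal subunits Gabrd averaged 53.1 ± 7.85 CPM in Abx and 58.02 ± 10 in H2O (-0.13), and Gabra4 and Gabra2 had log2 fold changes of -0.033 and -0.025. Gabbr1 differed by 0.0017 ± 0.0731 on the log2 scale. No subunit of 7 reached an unadjusted p below 0.05, where 3.26% of all genes were higher and 5.53% lower. Both number series gave Gabbr2 a higher mean in Abx, by 0.69 in series 2 and 0.7 in series 3 (difference of mean log2 CPM, with 2 Abx libraries in each and 2 and 3 H2O libraries), whereas the differences of the other 6 subunits changed sign between the series. In series 2 the Gabbr2 difference rests on Abx replicate 1 (172.7 CPM), since Abx replicate 2 (75.1) lay between the H2O libraries (61.6 and 81.5). In series 3 Abx replicate 4 had 166.1 CPM, while Abx replicate 3 (107.6) was close to H2O replicate 5 (106.5).

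Here too the cortical markers had positive fold changes in 11 of 11 (median log2 1.82), of which 5 reached an unadjusted p below 0.05. Of 8 oligodendrocyte genes all had negative ones (median -0.68, 7 of 8), and the myelin gene Mbp averaged 4971 ± 1440 CPM in Abx and 8225 ± 1700 in H2O (SD). All 8 were also negative against H2O in SCFA (median -0.20, 0 of 8) and in Abx_SCFA (median -0.40, 0 of 8). Over the 20 libraries r with Mbp, given as a description, was -0.641 for Gabrb2, -0.516 for Gabbr2 and -0.42 for Gabra5. It was -0.322 for Gabbr1, -0.26 for Gabra2, -0.239 for Gabra4 and -0.234 for Gabrd. Beside a term for the cortical score, with the limit given for SCFA against H2O, the log2 fold change of Gabbr2 was -0.31 and that of Gabra5 -0.34. Without SCFA replicates 2 and 5, which belong to neither group but share in the estimate of spread, Gabbr2 had 0.74 with an unadjusted p = 0.0082 (adjusted p = 0.292). Leaving out SCFA replicate 5, H2O replicate 5 or Abx replicate 2 alone also brought 1 subunit to an unadjusted p below 0.05. The number of all genes at that p rose too, from 1129 of 12846 to 1595 of 12801 without the pair. It was 1466 of 12822, 1277 of 12838 and 1427 of 12920 without the single libraries, in the order named.

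Abx_SCFA against H2O combines both treatments. The subunits differed from H2O by at most 0.44 on the log2 scale, the value of Gabbr2 (SE 0.357, adjusted p = 0.839), which averaged 107 ± 17.9 CPM in Abx_SCFA and 78.8 ± 17.1 in H2O. Gabrb2 averaged 20.6 ± 3.71 CPM in Abx_SCFA and 23.6 ± 2.67 in H2O (log2 fold change -0.20), and Gabra5 60.6 ± 9.02 CPM in Abx_SCFA and 55.2 ± 6.74 in H2O (0.13). Gabra2, Gabra4 and Gabrd had log2 fold changes of -0.069, -0.065 and -0.028, and Gabbr1 0.028. No subunit of 7 reached an unadjusted p below 0.05, where 2.09% of genes were higher and 3.46% lower. The cortical markers were again positive in 11 of 11 (median log2 1.49), and with their score as a term Gabbr2 had -0.51 and Gabra5 -0.34 (unadjusted p = 0.016 and 0.0278, adjusted p = 0.627 for both). The limit of this term given for SCFA against H2O holds here too. At similar scores of 4.11, 4.06 and 4.12, H2O replicate 5 and Abx_SCFA replicates 2 and 5 had 106, 105 and 112 CPM of Gabbr2.

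Abx_SCFA against Abx asks what fatty acids do after depletion. Gabrb2 averaged 20.6 ± 3.71 CPM in Abx_SCFA and 25.1 ± 4.92 in Abx (log2 fold change -0.28 ± 0.206, SE), and Gabbr2 107 ± 17.9 CPM in Abx_SCFA and 130.4 ± 47 in Abx (-0.29 ± 0.375, SE); neither passed (adjusted p = 0.999 for both). The remaining subunits had values between -0.045 for Gabra2 and 0.10 for Gabrd, and Gabra5, at -7.9e-05, was level. No subunit of 7 reached an unadjusted p below 0.05, where 1.85% of genes were higher and 1.34% lower. Of the 11 cortical markers 1 had a positive value (median log2 -0.31), and of the 14 spiny neuron markers 12 had (median 0.037).

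Abx_SCFA against SCFA asks what antibiotics do when fatty acids are supplied, and it lies within number series 4. The striatal subunits had higher means in Abx_SCFA. Gabra4 averaged 121 ± 11.2 CPM in Abx_SCFA and 102 ± 16.9 in SCFA (log2 fold change 0.25 ± 0.108, SE; adjusted p = 0.732). Gabrd averaged 56.9 ± 6.23 CPM in Abx_SCFA and 48.8 ± 6.86 in SCFA (0.22 ± 0.118, adjusted p = 0.735), and Gabra2 186 ± 8.16 CPM in Abx_SCFA and 171 ± 23.5 in SCFA (0.12 ± 0.0866, adjusted p = 0.777). Gabbr2 averaged 107 ± 17.9 CPM in Abx_SCFA and 156 ± 108 in SCFA (-0.54 ± 0.342, adjusted p = 0.752), and the SCFA libraries were far more spread.

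One subunit of 7, Gabra4, was higher at an unadjusted p below 0.05, where 2.72% of genes were higher, and 0 were lower, where 4.06% were lower. All 14 spiny neuron markers were positive in this comparison (median log2 0.38, 8 of 14 at an unadjusted p below 0.05) and all 11 cortical markers negative (median -0.85). With that cortical term Gabra4 had 0.22 (unadjusted p = 0.0391, adjusted p = 0.785), close to its value without it, and Gabbr2 -0.14. Without SCFA replicates 2 and 5 Gabra4 had 0.15 and no subunit reached an unadjusted p below 0.05, while the value of Gabbr2 turned to 0.12. Leaving out 1 library moved the count of subunits to 0 for SCFA replicates 1, 2, 3 and 5 and Abx_SCFA replicates 3 and 4, to 2 for Abx_SCFA replicate 2 and to 4 for SCFA replicate 4. The number of all genes at that p, 871 of 12846 with all libraries, moved as well, but not always in the same direction. It was 1071 of 12833, 480 of 12838, 953 of 12832 and 827 of 12822 without SCFA replicates 1, 2, 3 and 5. Without Abx_SCFA replicates 3 and 4 it was 561 of 12840 and 710 of 12841. It was 925 of 12834 without Abx_SCFA replicate 2 and 1535 of 12840 without SCFA replicate 4.

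The interaction asks whether the antibiotic difference is another with fatty acids than without, as Abx_SCFA minus SCFA less Abx minus H2O. Gabbr2 had the largest value of the 7, -1.27 ± 0.508 on the log2 scale (SE; adjusted p = 0.622). Gabrd had 0.35 ± 0.177 and Gabra4 0.28 ± 0.162 (adjusted p = 0.627 and 0.647). One subunit of 7, Gabbr2, was lower at an unadjusted p below 0.05, where 5.01% of genes were lower, and 0 were higher, where 2.83% were higher. The cortical markers had negative values in 11 of 11 (median log2 -2.95) and the spiny neuron markers positive ones in 14 of 14 (median 0.41). With the cortical term the value of Gabbr2 was 0.17, and without SCFA replicates 2 and 5 it was -0.62 (adjusted p = 0.959). The count of subunits was 0 without Abx replicate 1, 2 without H2O replicate 4 or 5 or Abx_SCFA replicate 2, and 3 without Abx replicate 3 or SCFA replicate 4. With all libraries 1008 of 12846 genes reached that p, and 774 of 12918 did without Abx replicate 1. The number was 852 of 12836, 1423 of 12838 and 1076 of 12834 without H2O replicate 4, H2O replicate 5 and Abx_SCFA replicate 2. Without Abx replicate 3 and SCFA replicate 4 it was 1049 of 12922 and 1382 of 12840. Subunits and all genes thus did not always move together. The comparisons share their H2O, Abx or SCFA libraries, so their values for a subunit are not independent of each other.

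**Figure D3:**
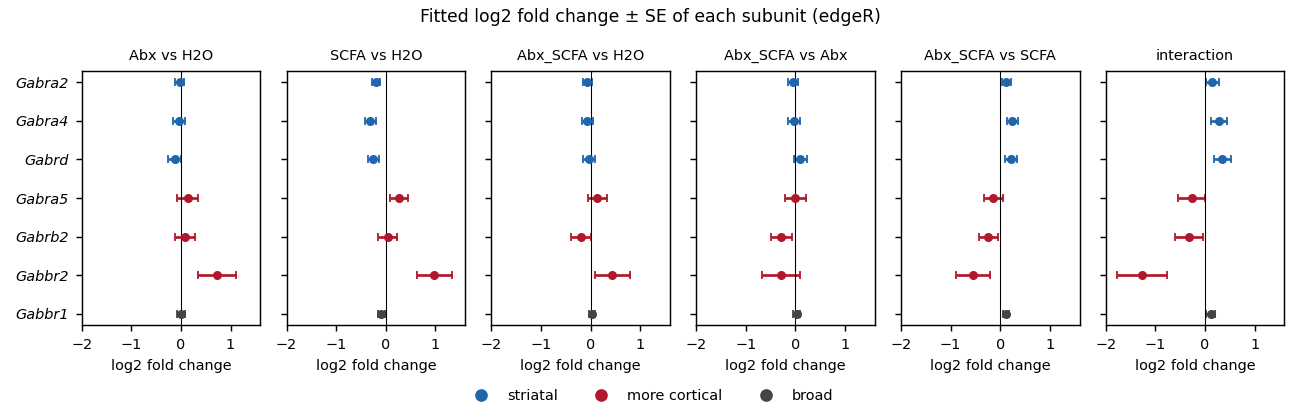
Fitted log2 fold change ± SE (horizontal axis) of each subunit (rows) in the 6 comparisons (panels), coloured by the striatal, more cortical or broad grouping. In SCFA against H2O the striatal subunits lie between -0.31 and -0.19 and Gabbr2 at 0.98, and the bars of Gabbr2 are the widest in each panel.

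**Figure D4:**
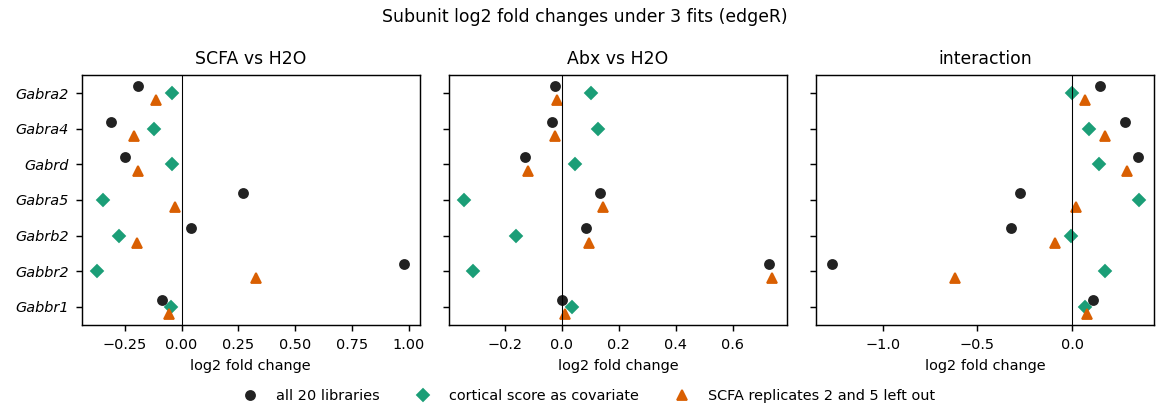
Log2 fold change (horizontal axis) of each subunit (rows) for SCFA against H2O, Abx against H2O and the interaction (panels, each with its own scale), from the fit to all 20 libraries, the fit with a term for the cortical marker score and the fit without SCFA replicates 2 and 5. The value of Gabbr2 in SCFA against H2O is 0.98, -0.37 and 0.33 in these fits. The score averaged lower in H2O than in the other groups, so its term and a difference from H2O cannot be fully separated.

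Put together per library, the mean log2 CPM of Gabra2, Gabra4 and Gabrd less that of Gabra5, Gabrb2 and Gabbr2 describes the balance of striatal and more cortical subunits; its absolute size depends on gene lengths and only its differences between libraries are read. It averaged 1.10 ± 0.14 in Abx_SCFA, 0.70 ± 0.66 in SCFA, 0.92 ± 0.386 in Abx and 1.27 ± 0.274 in H2O (SD). Abx_SCFA libraries lay between 0.91 and 1.27, Abx libraries between 0.46 and 1.31 and H2O libraries between 0.85 and 1.61. SCFA spanned the most, with SCFA replicate 5 at -0.28, replicate 2 at 0.11 and the other 4 between 0.65 and 1.30, so that the wide SD of that group rests mainly on this pair of libraries. No test was made of this balance.

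Other genes of the GABA system came from lists of GABA-A subunits, of enzymes and transporters of GABA, and of receptor partners; none was called, and their counts use the unadjusted p below 0.05 again. In SCFA against H2O, where 8.2% of all genes were higher and 5.58% lower, 0 of 12 other GABA-A subunits tested were higher and 4 lower, with a median log2 fold change of 0.13 against -0.003 over all genes. Of the 8 genes for making, moving and degrading GABA, 0 were higher and 4 lower (median -0.19), Gad2, Slc32a1 (-0.36), Abat (-0.245) and Gad1 (-0.23); the last 3, and Kcnj9 and Gphn in this comparison, were named after their values were seen. Gad2, a GABA-synthesising enzyme, averaged 218 ± 44.5 CPM in SCFA and 316 ± 64.2 in H2O (SD; log2 fold change -0.54 ± 0.158, SE; adjusted p = 0.247). Of 12 partners tested, 3 were higher and 1, Gphn (-0.16), lower (median -0.045). The higher ones, Kcnj6, Kcnj3 and Kcnj9 (0.57), encode GIRK channel subunits, on which GABA-B receptors act. Kcnj6 had a median of 39.1 CPM in SCFA and 6.31 in H2O (log2 fold change 2.52 ± 0.724, SE; adjusted p = 0.247) and Kcnj3 a median of 10.98 CPM in SCFA and 7.15 in H2O (1.33 ± 0.429, SE; adjusted p = 0.247).

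In Abx against H2O, where 3.26% of all genes were higher and 5.53% lower, 2 of 12 other GABA-A subunits were higher and 0 lower, and 1 partner of 12 was higher. Kcnj6 had a median of 43.8 CPM in Abx and 6.31 in H2O (log2 fold change 1.86 ± 0.76, SE; adjusted p = 0.563). Gabrr2, the rho2 subunit, had 10, 3, 16 and 62 counts in Abx libraries, against 6, 14, 5, 4 and 4 in H2O (log2 fold change 1.57). Its Abx mean rests mainly on replicate 4, since replicate 1 lay within the H2O range of CPM and replicate 2 below it. Gabrq, the theta subunit, had 14, 12, 4 and 7 counts in Abx libraries, against 0, 0, 2, 4 and 5 in H2O (log2 fold change 1.86). In Abx_SCFA against SCFA, where 2.72% of all genes were higher and 4.06% lower, 3 of 8 genes of GABA synthesis and transport were higher and 0 lower: Slc32a1, which loads GABA into vesicles (0.37 ± 0.143), Gad1, the other synthesising enzyme (0.24 ± 0.106), and Abat, which degrades GABA (0.20 ± 0.0928; log2 fold change, SE; adjusted p = 0.732 for each). In the interaction, where 2.83% of all genes were higher and 5.01% lower, 3 of 12 partners were lower and 0 higher, namely Kcnj6 (-2.98), Kcnj3 (-1.65) and Kcnj9 (-0.80), and 2 of 12 other GABA-A subunits were lower, Gabrq (-2.65) and Gabrr2 (-1.70), named after their values were seen (adjusted p = 0.622 for the 3 partners). In Abx_SCFA against H2O or Abx none of the 32 genes of these lists reached an unadjusted p below 0.05. The GIRK genes had the same signs as the cortical markers in SCFA and Abx against H2O and in the interaction, and the part of those cells in the GIRK values was not tested.

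The genes whose log2 CPM was most like that of each subunit over the 20 libraries were searched among 11751 tested genes that carry a name and average 1 CPM or more, and r is given as a description. Gabbr2 was most like Lingo1 (r = 0.986), Galnt9 (0.98) and Ube2ql1 (0.975). Gabra5 was most like Gap43 (0.917), Tshz3 (0.91) and Stau2 (0.909). Gabra4 was most like Slc2a13 (0.96), Rragd (0.953) and Hs6st2 (0.951), and Gabra2 most like Foxp2 (0.921), a transcription factor gene of medium spiny neurons, Tmem231 (0.914) and Elmod1 (0.908). Gabrd was most like Napa (0.916), Kcnj4 (0.903) and C2cd2l (0.893), and Gabrb2 most like Kcnma1 (0.925), Myo5a (0.908) and Cntn1 (0.907). Gabbr1 had the weakest likenesses, with Diaph1 (0.83), Kcnq5 (0.813) and Dpy19l3 (0.804). Between the receptor partners themselves, the log2 CPM of Gabbr1 and Gabbr2 had r = -0.214 over the 20 libraries, while Gabbr2 and Gabra5 had r = 0.816.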

How the data were processed

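The authors deposited whole-number counts in 1 table, with a row for each gene symbol and a column for each of 20 libraries; the column sums differ. Per the labels' protocols, total RNA was extracted with an RNeasy kit and cDNA made with a SMARTer kit, and the labels give the molecule as polyA RNA. FastQC 0.11.6, STAR 2.4.0 and limma are named in the submitters' processing notes, which give Rnor_6.0 as build. How reads were counted, with which annotation and strand setting, is not given in the sources used here, so a gene and an overlapping or antisense partner cannot be told apart.

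Columns were matched to samples by title and grouped by the treatment labels. Replicate numbers follow accession order and pair nothing. Per the labels rats were housed 2 per cage, without naming cage mates, so p-values measure the spread between rats treated as separate. Over 190 pairs of libraries the smallest chi-square per gene was 6.77, and none was counted as a duplicate.

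Groups were compared in edgeR 4.0.16 (R 4.3.3) by its quasi-likelihood F test, from 1 model that holds the 4 groups, TMM factors and robust dispersions, with 16 residual degrees of freedom. The filter filterByExpr (settings 10 and 15 for the count minimum and the total) kept 12846 genes, over which p-values were adjusted. Standard errors derive from the F statistic. Log2 CPM used a prior count of 2. Correlations were tested by permutation in Python 3.11.15, by exact enumeration for 9 libraries. The cortical list has 12 genes, 11 of them in the table, and 2 of 14 other GABA-A subunits had too few counts to be tested. Some members of that list are not reported here by name. The scripts were tested on simulated data.

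Alternatives were DESeq2 1.42.0, limma 3.58.1 with voom, other scalings, no filter, a term for number series or cortical score, fewer groups, and fewer libraries. The subunits, gene lists and groupings were chosen with earlier results of these data known. Named genes are the 7 subunits, the 3 genes most like each, up to 3 genes of the other GABA lists per comparison with the smallest unadjusted p below 0.05, and Slc17a7, Drd1 and Mbp; Neurod1 and the genes the text marks as such were named after their values were seen. Promoters came from a RefSeq table of GRCr8, and no coordinate was converted.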

Additional observations from a re-analysis of the deposited data

How the results depend on the processing

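No subunit was called in any comparison under the settings tried. DESeq2 called 1 other gene in Abx against H2O, 10 in SCFA against H2O, 1 in Abx_SCFA against H2O, 3 in Abx_SCFA against SCFA and 0 elsewhere; limma-voom called 0. Of 1295 refitted log2 fold changes 55 changed sign. Of 420 counts 42 moved, either by over 1.5 times or between 0 and another number. Of 350 correlations 6 changed sign, 32 lost and 2 gained the threshold. Where no cause is given, the cause was not tested. The depth, at least 320 counts of a subunit in a library, limits these results less than the spread between rats.

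With a cortical score term 1, 1, 2 and 0 subunits reached an unadjusted p below 0.05 in Abx, SCFA and Abx_SCFA against H2O and the interaction, beside 1095, 388, 1004 and 459 of 12846 genes (1129, 1770, 714 and 1008 without the term). Signs changed there in Abx against H2O for Gabra2 (0.101), Gabra4 (0.127), Gabrd (0.0451), Gabra5 (-0.342), Gabrb2 (-0.16) and Gabbr2 (-0.312), in SCFA against H2O for Gabra5 (-0.346), Gabrb2 (-0.274) and Gabbr2 (-0.372), and in Abx_SCFA against H2O for Gabra2 (0.0563), Gabra4 (0.0956), Gabrd (0.145), Gabra5 (-0.335) and Gabbr2 (-0.511). They also changed for Gabra5 in Abx_SCFA against Abx (0.00761) and against SCFA (0.0118), and in the interaction for Gabra2 (-0.00256), Gabra5 (0.354) and Gabbr2 (0.173). Because the score averaged lower in H2O than in the other groups, its term and a difference from H2O cannot be fully separated.

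Without SCFA replicates 2 and 5 the counts were 1 in Abx against H2O and 0 in SCFA against H2O, Abx_SCFA against SCFA and the interaction, beside 1595, 636, 470 and 498 of 12801 genes. Signs changed for Gabra5 (-0.0274) and Gabrb2 (-0.198) in SCFA against H2O, for Gabra5 (0.167), Gabrb2 (0.00725) and Gabbr2 (0.117) in Abx_SCFA against SCFA and for Gabra5 in the interaction (0.0226). Without H2O replicate 4 and Abx_SCFA replicate 5 Gabra2 in Abx against H2O was 0.000205. With only the compared groups in the fit, the counts were 1 in Abx, 2 in SCFA and 1 in Abx_SCFA against H2O and 2 in Abx_SCFA against SCFA. Beside them stood 1285 of 12599, 1340 of 12587, 1145 of 12536 and 738 of 12610 genes. The interaction has no such fit.

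Gabra5 in Abx_SCFA against Abx was 0.00395 with upper quartile scaling, 0.00793 with limma-voom and 0.00667 with a number series term. Limma-voom gave Gabrb2 -0.000476 in SCFA against H2O. With quality weights voom gave counts of 1 in Abx against H2O, 2 in Abx_SCFA against SCFA and 2 in the interaction. Beside them stood 1677, 1174 and 988 of 12846 genes. That fit also gave Gabbr1 -0.0154 in Abx against H2O, Gabrb2 -0.197 in SCFA against H2O and Gabra5 0.00737 in Abx_SCFA against SCFA.

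With the cortical score 5 of 7 subunits passed over all libraries, 2 as deviations from group means, 3 in number series 4 (Gabbr2, Gabra5 and Gabrb2, which is not among the 5) and 1 in series 2 and 3, where Gabrb2 had -0.0331. With the spiny neuron score 4 passed, and 2 in each set, and in series 4 Gabra5 had 0.253 and Gabbr2 0.0865. Each set holds fewer libraries. Over all 20 libraries, the share of other genes with an r as far from 0 ran from 0.849% to 21.1% for the 5 subunits that passed with the cortical score. Over 18 libraries, that share ran from 0.234% to 16.1% for the 4 that passed with the spiny neuron score. No such share was computed for the deviations from group means or for either set of rats. The division by series was chosen after seeing the data.

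Leaving out 1 library at a time gave 0 to 1 subunits at an unadjusted p below 0.05 in Abx against H2O, 2 to 5 in SCFA against H2O, 0 to 4 in Abx_SCFA against SCFA and 0 to 3 in the interaction, and 2 to 5 cortical relations, the 2 without SCFA replicate 2. The number of all genes at that unadjusted p moved as well, but not always in the same direction as the subunits. In SCFA against H2O it was 2253 of 12840 without SCFA replicate 4, where 5 subunits reached that p. Without SCFA replicate 5, where 2 subunits did, it was 1182 of 12822. In Abx against H2O it ran from 626 of 12922 without Abx replicate 3 to 1466 of 12822 without SCFA replicate 5. The folds that changed sign ranged in Abx against H2O from -0.0706 to 0.0471 for Gabra2, -0.12 to 0.053 for Gabra4, -0.0227 to 0.225 for Gabra5 and -0.0188 to 0.0549 for Gabbr1, in SCFA against H2O from -0.165 to 0.128 for Gabrb2, and in Abx_SCFA against H2O from -0.101 to 0.0413 for Gabrd. In Abx_SCFA against Abx they ranged from -0.113 to 0.00438 for Gabra2, -0.115 to 0.058 for Gabra4, -0.086 to 0.159 for Gabra5 and -0.0214 to 0.0497 for Gabbr1. The r of Gabrb2 with the cortical score ranged from -0.0973 to 0.324 and that of Gabra5 with the spiny neuron score from -0.203 to 0.0839. No paired analysis was possible because the replicate numbers follow accession order and pair no rats.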
